A study of Mus musculus with 6 samples.

Results

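The histone genes of the mouse testis are described here: 85 of the 24411 genes in the deposited tables, chosen by their symbols (the Hist1h to Hist4h cluster genes, the H1f, H2a, H2b, H3 and H4 families and Hils1, without H2afx). They were divided into 65 replication histones of the gene clusters, 11 germ-line variants and 9 replacement variants. The measurement is RNA sequencing of whole testes of C57BL/6 mice, a standard inbred laboratory strain, from 3 animals with the genotype MRP5-/- and MRP9-/- (labelled DKO, for double knockout) and 3 age-matched Wildtype animals (labelled WT). Abcc5 and Abcc12 encode MRP5 and MRP9, both ABC transporters of cell membranes. The labels give no age in days and do not describe the knockout alleles.

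Histones H2A, H2B, H3 and H4 form the core of the nucleosome around which DNA is wound, and the linker histone H1 binds the DNA between nucleosomes. Replication histones are made in S phase from clustered, mostly intronless genes, and their mRNAs end in a conserved stem-loop in place of a poly(A) tail. Replacement variants such as H2A.Z and H3.3 are made at any time from polyadenylated mRNAs. Spermatogenesis adds germ-line variants, first in spermatocytes and then in spermatids, where nearly all histones are later exchanged for transition proteins and protamines. The labels do not say whether poly(A) RNA was selected, so the part of that step in the levels of stem-loop transcripts was not tested.

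The libraries held between 26753721 and 67131103 expected counts, and all 3 labelled DKO were deeper than the 3 labelled WT. Mean fragment length, read from the deposited effective lengths, was 275 to 317 bases in the libraries labelled DKO and 230 to 258 bases in those labelled WT. Fragment length and labelled genotype cannot be told apart here, which bears on short genes such as most histone genes. Levels in CPM are counts scaled to the library's total after adjustment by TMM, edgeR's normalization factor for each library. Abcc12 was at 72.6 to 82.4 CPM in the libraries labelled DKO against 158 to 165 in those labelled WT. Abcc5 was not lower but at 16.7 to 17.0 against 10.5 to 12.3 CPM, so the genotype is named below by its label. The whole testis holds germ cells and somatic cells, and in such a sample fewer cells of a type cannot be told apart from less RNA per cell.

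The stem-loop was looked for on the sense strand of the GENCODE M21 transcripts (GRCm38) matched to the genes. It was in 45 of the 64 replication histones with a transcript, in 2 of 10 germ-line variants (Hist1h1t and H2bfm) and in 0 of 9 replacement variants, against 71 of 141767 transcripts of all genes (0.0501%). The 71 include transcripts of these histone genes. The sequences below show the form shared by most members, its variants in the linker of spermatocytes and in the called gene Hist2h2ac, and 3 forms of H4 genes. Capitals mark the 16 bases of the stem and loop.
Hist2h2aa1: taaaaaGGCTCTTTTCAGAGCCacccac
Hist1h2bp: cacaaaGGCTCTTTTCAGAGCCacccac
Hist1h3a: accaaaGGCTCTTTTCAGAGCCacacac
Hist1h1t: cccaaaGGCTCTTTTAAGAGCCacttac
Hist2h2ac: caaaaaGGCTCTTTTTAGAGCCaccaaa
Hist1h4a: accaaaGGCCCTTCTCAGGGCCgcccac
Hist1h4h: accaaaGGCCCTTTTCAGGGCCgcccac
Hist1h4b: acaaaaGGTCCTTTTCAGGACCactcac
The form of Hist2h2aa1 was shared by 27 members of the H1, H2A, H2B and H3 types. The H4 genes had other stems, and the form of Hist1h4h was shared by 7 of them. The forms of Hist1h4a and Hist2h2ac were each found in 1 gene. The polyadenylation signal AATAAA was in the last 40 bases of 13 of the 64 replication histones, of which 10 also held the stem-loop, Hist1h2bp and Hist1h4a among them. Each feature was scored over all matched transcripts of a gene. For Hist1h2bp, with 2 of them, the features need not lie in the same transcript. A missing match says only that these letters are not in the annotated transcript, which for several cluster genes ends close to the stop codon.

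Levels between genes are given in TPM, which are scaled to transcript length and library total. The germ-line variants held the highest summed level, 2792 ± 31.7 TPM (SD, n = 3) in the libraries labelled DKO and 2425 ± 129 in those labelled WT. Replication histones summed to 1647 ± 174 against 1755 ± 85.3 TPM, and replacement variants to 1583 ± 33.1 against 1605 ± 9.04 TPM. Effective lengths, which enter TPM, differed between the groups with fragment length, and no test was run on these sums. Few genes carried these sums. Only 9 of the 85 genes averaged at least 100 TPM over the 6 libraries, 3 in each class, and 41 of the 65 replication histones averaged under 1 TPM.

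Linker histone RNA was almost entirely that of 2 spermatid variants. Hils1, a linker-like protein of spermatid nuclei, made up 45.6% to 52.7% of all H1 TPM, and H1fnt (H1T2), which lies at one pole of the spermatid nucleus and is required for its condensation, 44.7% to 49.3%. Hist1h1t (H1t), the linker of spermatocytes, averaged 7.54 TPM. The replication linkers summed to 9.82 ± 3.06 TPM in the libraries labelled DKO and 7.71 ± 1.18 in those labelled WT. The somatic replacement linker H1fx averaged 55.1 TPM.

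Among H2A genes, Hist2h2aa1 held 39.2% to 49.0% of the TPM, H2afz (H2A.Z.1) 19.0% to 25.6% and the gene listed as H2afb1 15.8% to 23.3%. The accession of that last entry belongs to H2al2a in the RefSeq table for GRCm38.p6, the gene of H2A.L.2, a short spermatid variant needed for the assembly of protamines on DNA. Hist1h2bp made up 71.3% to 78.7% of H2B TPM, and the testis variant Hist1h2ba (TH2B) 2.01% to 2.93%. The H3 RNA was that of H3.3, with H3f3a at 55.0% to 56.8% and H3f3b at 39.4% to 40.9%, while the 12 replication H3 genes summed to between 31.2 and 43.2 TPM. For H4, which has no replacement variant in the rule, Hist1h4a held 81.3% to 89.7%.

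**Figure D1:**
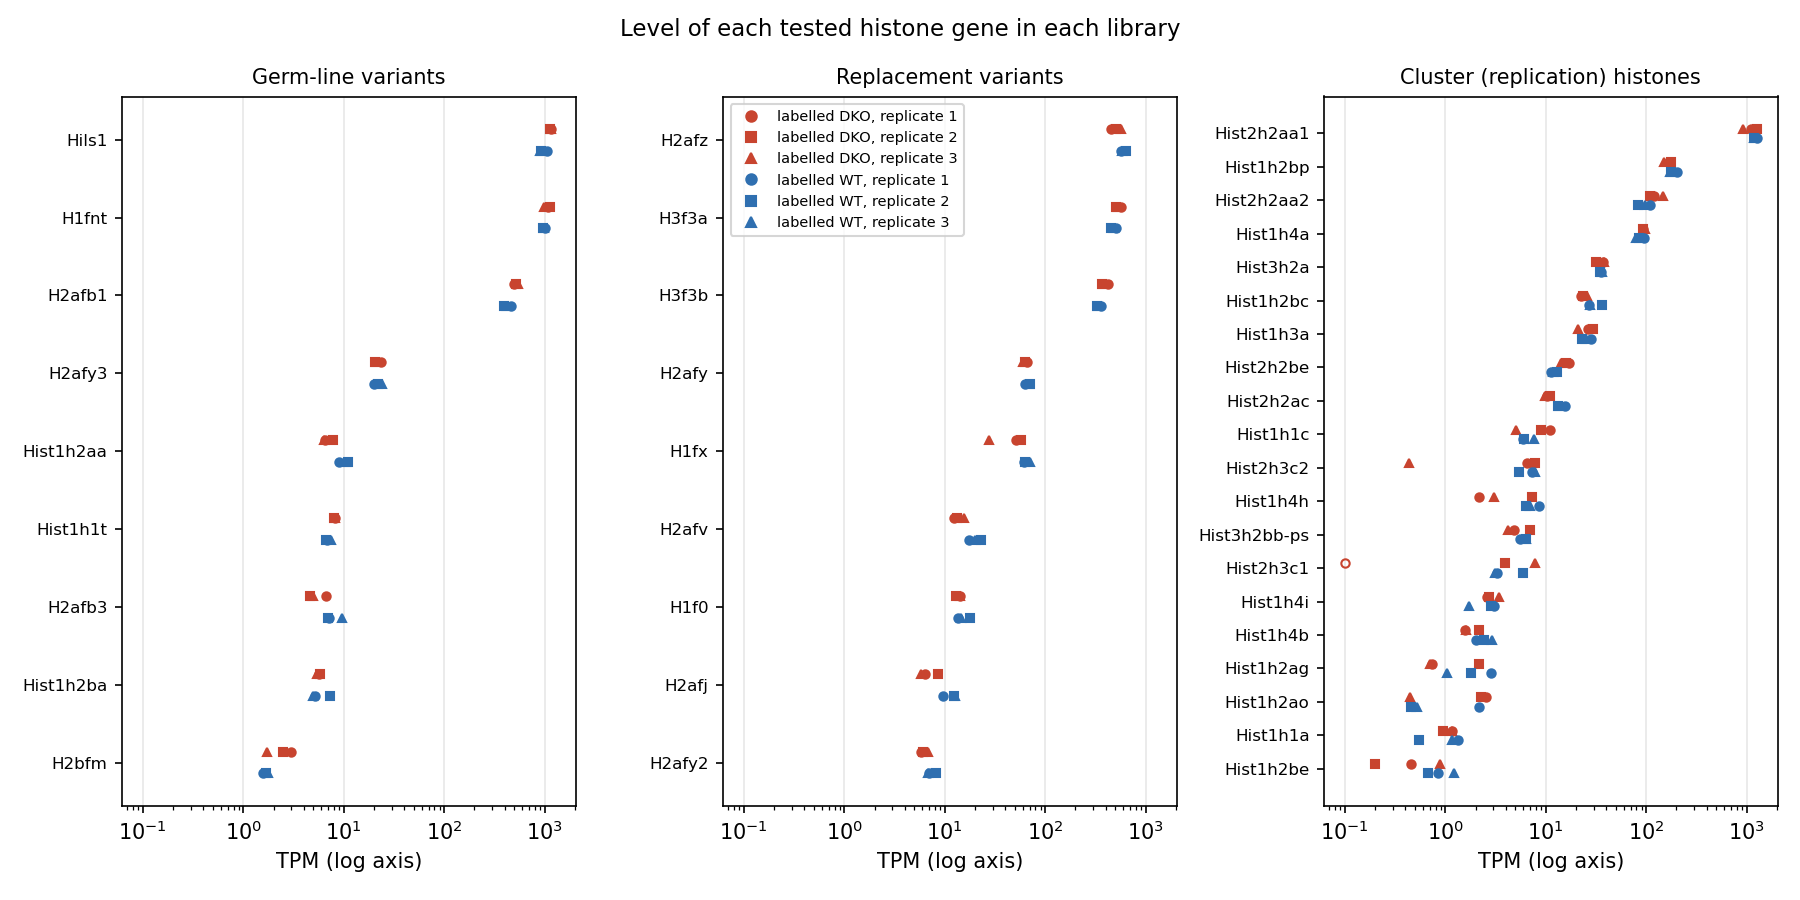
Level of each of the 38 tested histone genes in each library, in TPM on a log axis, labelled DKO in red and labelled WT in blue, with replicates 1 to 3 as circle, square and triangle. The open circle is Hist2h3c1 in the library labelled DKO replicate 1, listed at 0 and drawn at the left edge. In each class 3 genes average at least 100 TPM.

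**Figure D2:**
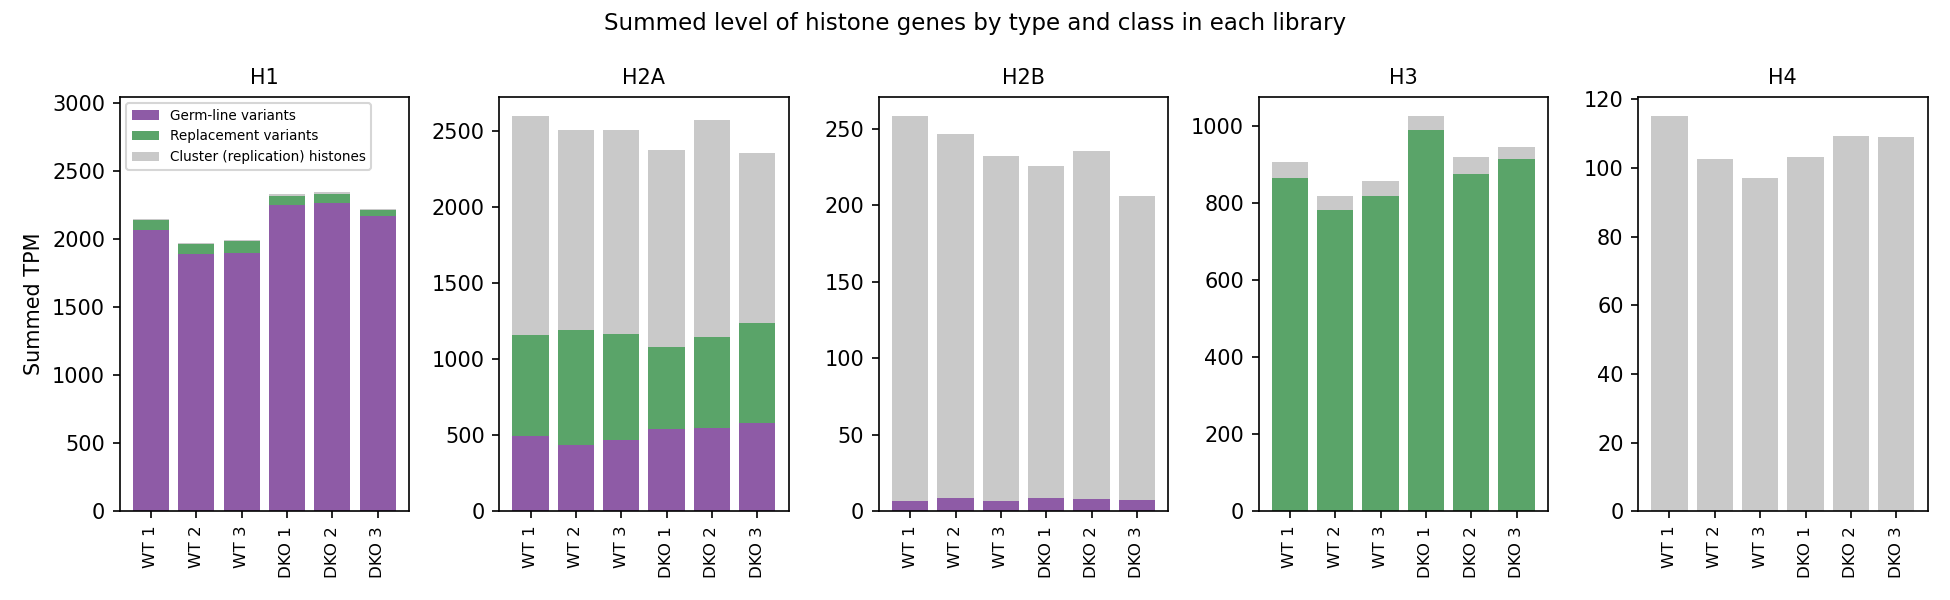
Summed TPM of the histone genes of each type in each library, stacked by class, with axes that start at 0 and differ between panels. H1 is nearly all germ-line variants, H3 nearly all replacement variants and H4 all replication histones.

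To ask which histone genes differed between the labelled genotypes, edgeR's quasi-likelihood test was run on all genes, and a gene was called at a Benjamini-Hochberg adjusted p under 0.05 over the 17110 tested genes. Of the 85 histone genes 38 passed the filter on low counts, namely 20 replication histones, 9 germ-line variants and 9 replacement variants. Since a gene can pass through 1 group, the 38 do not stand for all members. The other 47 reached at most 0.448 CPM in any library, and Hist1h4n, Hist2h4 and H2afb2 were listed at 0 in all 6. Among the 38, 1 rose (Hist2h2be) and 5 fell (H2afj, H2afv, Hist1h2aa, H2afb3 and Hist2h2ac). That is 6 of 38, where 10.8% of all tested genes were called, 5.75% higher and 5.1% lower. The CPM of the groups did not overlap for 16 histone genes, 3 higher and 13 lower in the libraries labelled DKO, where 35.9% of all tested genes did not overlap (18.4% higher, 17.5% lower). On the TPM scale 15 histone genes did not overlap, 6 higher and 9 lower, where 33.2% of all tested genes did not (15% higher, 18.2% lower).

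Short genes as a whole lay lower in the libraries labelled DKO. Of the 1792 tested genes under 1000 bases, 19.9% were called, 4.19% higher and 15.7% lower, with a median log2 fold change of -0.14 against 0.01 for longer genes. Of the 38 histone genes 25 were under 1000 bases, and of these 3 were called, all lower. The median log2 fold change was -0.23 for the 20 replication histones, 0.12 for the 9 germ-line variants and -0.19 for the 9 replacement variants, beside -0.0042 for all tested genes. With an offset from the deposited effective lengths these medians were -0.02, 0.17 and -0.19. That fit called 9.71% of all tested genes (5.59% higher, 4.12% lower) and 4 histone genes: H2afj and H2afv lower, Hist2h2be and H2afb1 higher. An offset fitted instead to the smooth run of values against length in each library called 10.3% of all tested genes (5.81% higher, 4.52% lower), and it called the same 4 histone genes with Hils1 and Hist2h2aa2 added, both higher.

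**Figure D3:**
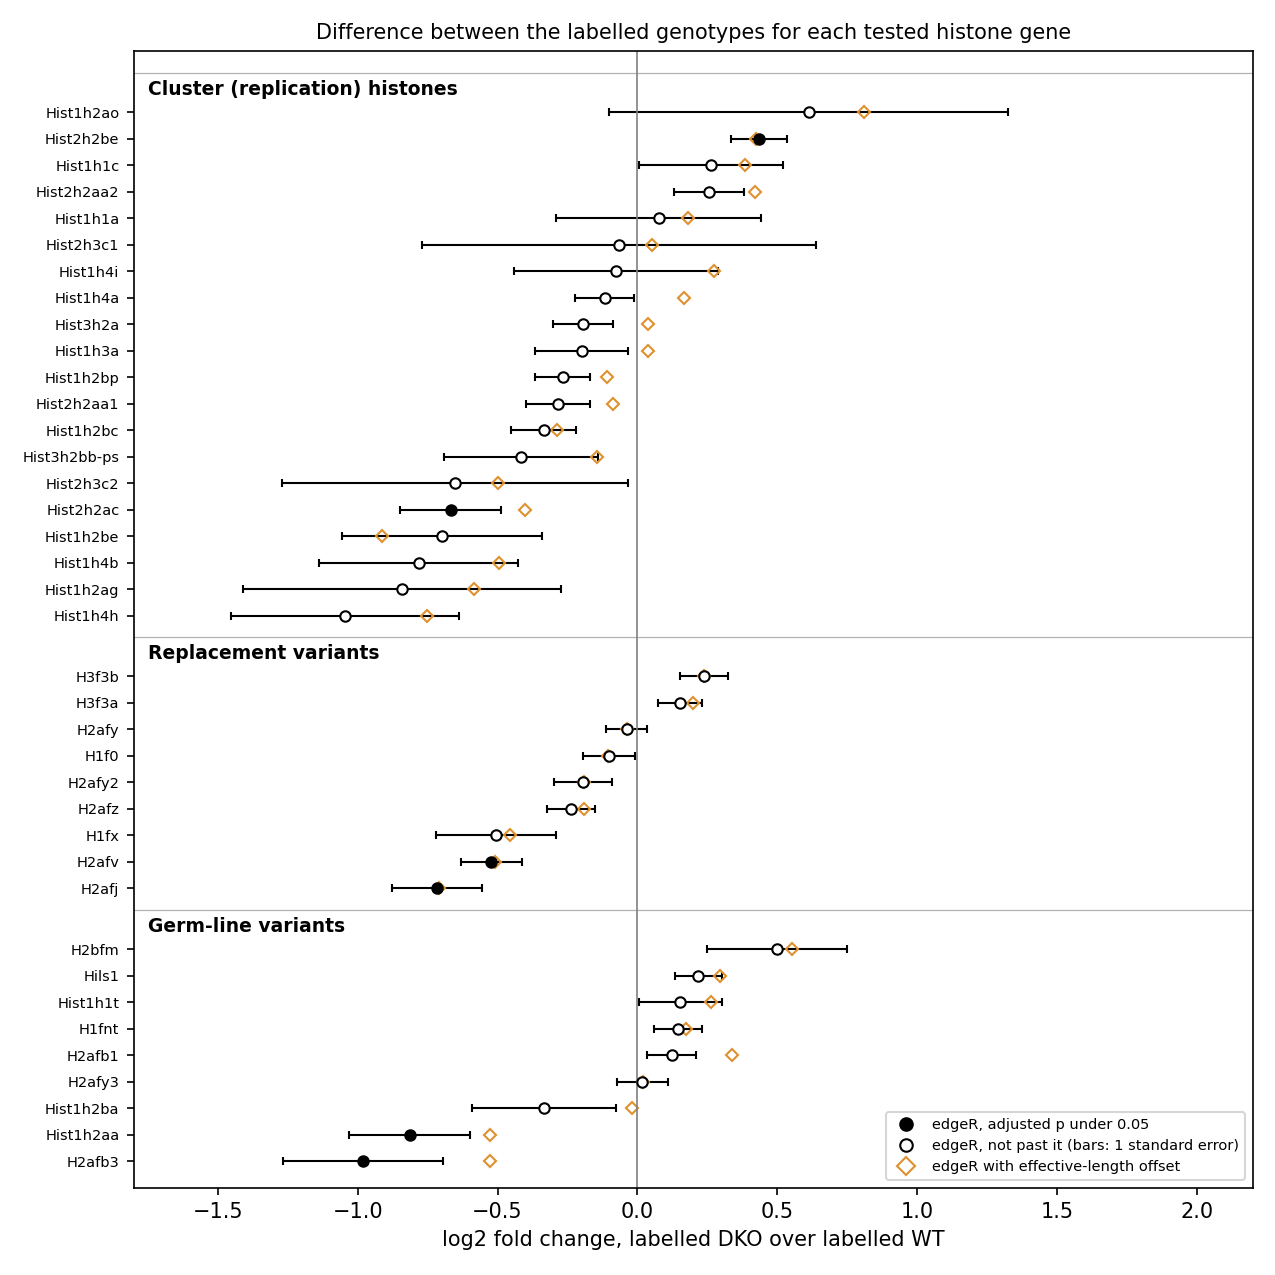
The log2 fold change, labelled DKO over labelled WT, of each of the 38 tested histone genes (circles; bars are 1 standard error; filled where the edgeR adjusted p is under 0.05), with the value under the effective-length offset as an orange diamond. Most diamonds of the short replication histones lie to the right of their circles, and those of the replacement variants lie close to them.

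Of the replacement variants, 0 were called higher and 2 lower, H2afj and H2afv. H2afj (chr6:136808248-136810074, GRCm38) encodes H2A.J, a variant that differs from canonical H2A mainly at its C-terminal tail. The gene overlaps Gm44364 on the opposite strand. H2afj stood at 6.85, 9.498 and 5.98 CPM in the libraries labelled DKO and at 10.5, 12.6 and 13.3 in those labelled WT. Every library labelled DKO was below every one labelled WT, and its log2 fold change was -0.72 (SE 0.159, edgeR adjusted p = 0.0296). H2afj lost its call without DKO replicate 1 (edgeR adjusted p = 0.129), WT replicate 2 (0.0918) or WT replicate 3 (0.106). Few genes of any kind were called in those 3 fits, with totals given below. The same 3 are among the fits without a call for each called gene that follows. Over all 6 fits that leave out a library the log2 fold change of H2afj was -0.94 to -0.57.

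H2afv (chr11:6427226-6444511), which encodes H2A.Z.2, was at 11.6, 13.1 and 14.2 CPM in the libraries labelled DKO and at 16.6, 20.6 and 18.7 in those labelled WT. The groups did not overlap, and the log2 fold change was -0.52 (SE 0.108, edgeR adjusted p = 0.0269). The H2afv call was lost without DKO replicate 1, DKO replicate 2, WT replicate 2 or WT replicate 3, at adjusted p between 0.056 and 0.114. With fragment length as a covariate, which cannot be told apart from the labelled genotype, almost no gene of any kind was called. H2afv then had a log2 fold change of -0.12 (edgeR adjusted p = 0.999). Its close relative H2afz (H2A.Z.1) stood at 242, 289 and 301 CPM against 319, 339 and 323, lower in every library labelled DKO but not called (-0.24, SE 0.0868, edgeR adjusted p = 0.0887). H2afz was the more abundant of this pair, with H2afv TPM at 0.0270 ± 0.000686 of H2afz TPM in the libraries labelled DKO and 0.0337 ± 0.00286 in those labelled WT.

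The H3.3 genes had positive differences, and neither was called. With fragment length as a covariate, which cannot be told apart from the labelled genotype, H3f3a was at -0.06 and H3f3b at -0.06. In every other alternative fit both were positive. H3f3b stood at 502, 457 and 435 CPM in the libraries labelled DKO and 430, 360 and 393 in those labelled WT, without overlap (log2 fold change 0.24, SE 0.0852, edgeR adjusted p = 0.0843). H3f3a stood at 309, 289 and 289 against 289, 244 and 266 CPM (0.15, SE 0.0785). The ratio of H3f3b to H3f3a in TPM was 0.724 ± 0.0177 against 0.705 ± 0.00479. H1fx was at 27.3, 32.5 and 14.7 CPM in the libraries labelled DKO and 34.2, 32.7 and 38.3 in those labelled WT, where DKO replicate 3 lay below all others (-0.51, SE 0.215, edgeR adjusted p = 0.13; -0.23 without that library). H1f0 (H1.0, the linker of differentiated cells), H2afy and H2afy2 (the macroH2A genes) had log2 fold changes of -0.10, -0.04 and -0.19.

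Of the germ-line variants, 0 were called higher and 2 lower, Hist1h2aa and H2afb3, both at low counts. Hist1h2aa (chr13:23934437-23934913) encodes TH2A, the testis H2A that pairs with TH2B. In the libraries labelled DKO it was at 0.721, 1.02 and 0.770 CPM, and in those labelled WT at 1.29, 1.58 and 1.52. The groups did not overlap (log2 fold change -0.81, SE 0.217, edgeR adjusted p = 0.0398). With the effective-length offset Hist1h2aa was at -0.53 (adjusted p = 0.11), while limma on log2(TPM + 1), which also takes effective length into account, kept the call (-0.51, adjusted p = 0.0406). Of the 6 fits that leave out a library it was called in 1, that without WT replicate 1, with adjusted p of 0.0516 to 0.148 in the others. Its partner Hist1h2ba was at 0.553, 0.682 and 0.592 against 0.683, 0.955 and 0.646 CPM, with overlap (-0.33, SE 0.257, edgeR adjusted p = 0.399). The ratio of Hist1h2aa to Hist1h2ba in TPM was 1.17, 1.37 and 1.16 against 1.75, 1.53 and 2.15.

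H2afb3 (chrX:120312582-120313226), an X-linked gene of the short H2A.B family, rested on 15, 14 and 20 counts in the libraries labelled DKO and 15, 19 and 24 in those labelled WT. Relative to depth these are 0.360, 0.318 and 0.296 CPM against 0.569, 0.567 and 0.776, which did not overlap. The log2 fold change was -0.98 (SE 0.286, edgeR adjusted p = 0.0498). H2afb3 was at -0.53 (adjusted p = 0.25) with the effective-length offset, and was called in 0 of the 6 fits that leave out a library, with adjusted p between 0.0543 and 0.171. It lies within Pcdh11x on the opposite strand. Its counts were whole in every library, and its relative H2afb2 was listed at 0 in all 6.

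The abundant spermatid variants were not among the called genes. Hils1 stood at 450, 470 and 463 CPM in the libraries labelled DKO and 448, 367 and 375 in those labelled WT, higher in every library (log2 fold change 0.22, SE 0.0845, edgeR adjusted p = 0.103). H1fnt stood at 787, 854 and 701 against 743, 666 and 708 CPM, with overlap (0.15, SE 0.0854, edgeR adjusted p = 0.262). H2afb1 was at 78.0, 91.5 and 92.5 against 87.1, 74.1 and 79.8 CPM (0.12, SE 0.0882, edgeR adjusted p = 0.364), with overlap. In TPM, which take effective length into account, H2afb1 was at 501, 514 and 548 against 459, 395 and 421, without overlap, and edgeR with the effective-length offset gave 0.34 (adjusted p = 0.0401). H2afb1 is under 1000 bases long, and its call depended on how length was treated.

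The other germ-line variants with tests were not called. Hist1h1t was at 2.45, 2.61 and 2.52 CPM in the libraries labelled DKO and 2.24, 2.12 and 2.46 in those labelled WT (log2 fold change 0.15, SE 0.148). H2bfm, an X-linked H2B family gene, was at 1.56, 1.39 and 0.903 against 0.873, 0.866 and 0.937 CPM (0.50, SE 0.251), with DKO replicate 3 among the WT values. H2afy3, a macroH2A-like gene listed under a noncoding accession within Pvt1, was at 23.1 to 26.96 against 23.1 to 26.86 CPM. Its place among the germ-line variants was assigned by hand and was not tested. H1foo, the oocyte linker, had 16 counts in all and was not tested.

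**Figure D4:**
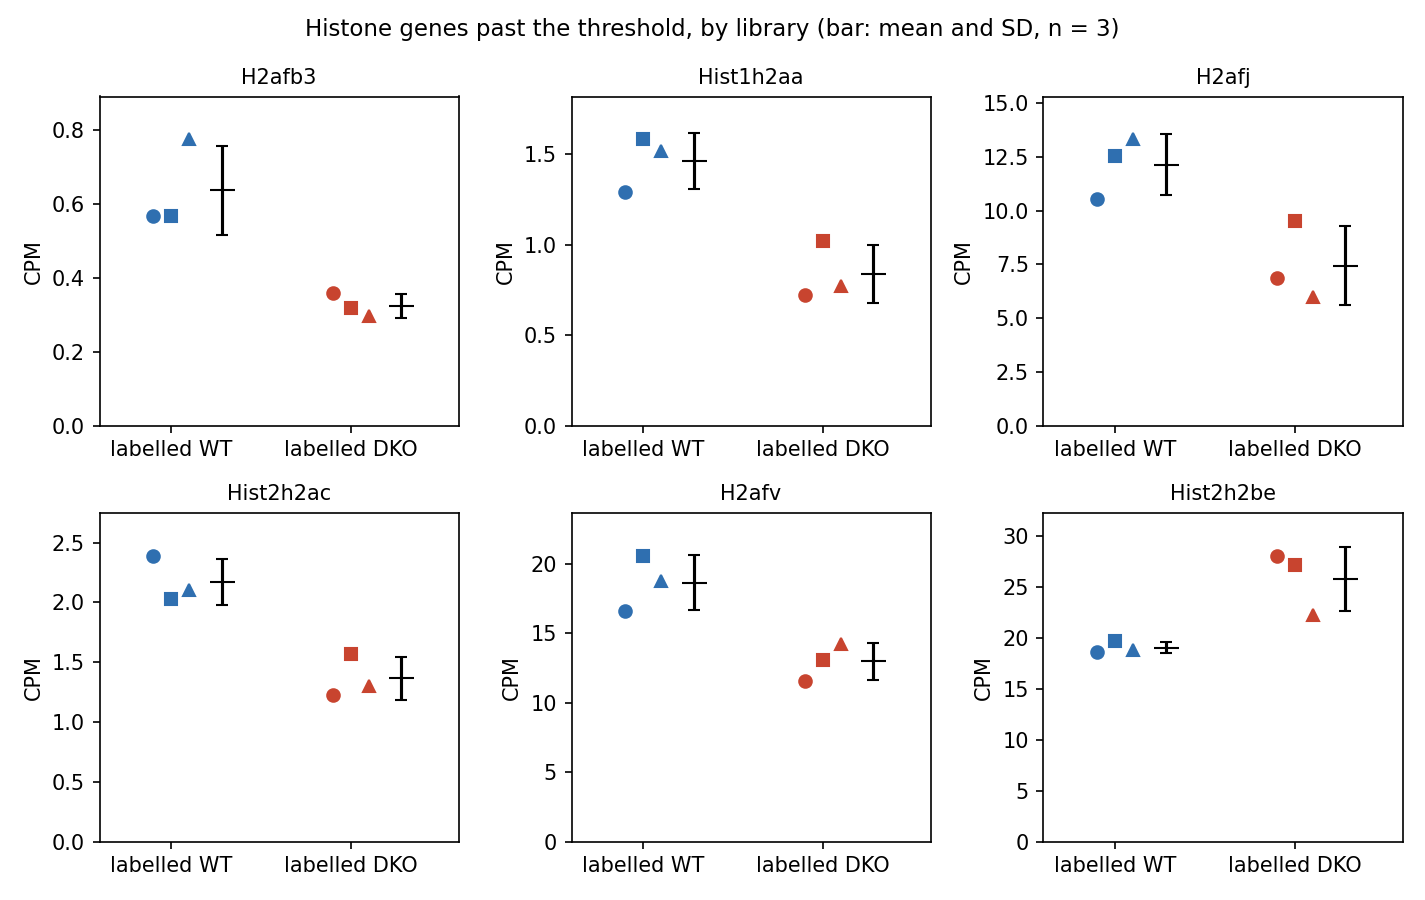
CPM in each library of the 6 called histone genes, labelled WT in blue and labelled DKO in red (replicates 1 to 3 as circle, square and triangle; bars are mean and SD, n = 3; axes start at 0). For each gene the 3 libraries labelled DKO lie on one side of the 3 labelled WT, above them for Hist2h2be and below them for the other 5.

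Of the replication histones, 1 was called higher and 1 lower, and these are next-door neighbours. Hist2h2be (chr3:96221072-96223738) encodes an H2B and Hist2h2ac (chr3:96220413-96220880) an H2A, read in opposite directions from start sites 192 bases apart. Hist2h2be was at 28.1, 27.1 and 22.2 CPM in the libraries labelled DKO and 18.6, 19.7 and 18.8 in those labelled WT, without overlap (log2 fold change 0.43, SE 0.0985, edgeR adjusted p = 0.0307). Hist2h2ac was at 1.23, 1.57 and 1.303 against 2.39, 2.03 and 2.10 CPM, lower in every library labelled DKO (-0.67, SE 0.179, edgeR adjusted p = 0.0404). No stem-loop was found in the transcript of Hist2h2be, which holds AATAAA near its end and is long for a histone mRNA, while Hist2h2ac carries the stem-loop printed above. With the effective-length offset Hist2h2be kept its call (0.43, adjusted p = 0.0348) and Hist2h2ac did not (-0.40, adjusted p = 0.157). On log2(TPM + 1) the reverse held, with limma adjusted p of 0.0601 for Hist2h2be and 0.0429 for Hist2h2ac. With fragment length as a covariate, where almost no gene was called, Hist2h2be was at 0.21 and not called. Hist2h2be was called in 1 of the 6 fits that leave out a library, that without DKO replicate 3, with adjusted p of 0.0502 to 0.13 in the others, and Hist2h2ac in 0 of the 6, with 0.056 to 0.145.

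H2A and H2B genes often share a promoter in this way. Of the cluster genes, 26 formed 13 such H2A and H2B pairs, with start sites 164 to 281 bases apart, and both genes were tested in 3 pairs. In the pair Hist1h2ba and Hist1h2aa (281 bases) the log2 fold changes were -0.33 and -0.81, and in Hist3h2bb-ps and Hist3h2a (173 bases) -0.42 and -0.19. Opposite signs were seen in Hist2h2ac and Hist2h2be. The promoter windows of RefSeq (GRCm38.p6, 250 bases before to 50 after the start) of the called H2A gene of 2 pairs are shown because each covers sequence between divergent start sites. Capitals mark TATAAA and CCAAT, each on either strand, and the octamer, which is ATGCAAAT.
Hist2h2ac, chr3:96220831-96221130, minus strand: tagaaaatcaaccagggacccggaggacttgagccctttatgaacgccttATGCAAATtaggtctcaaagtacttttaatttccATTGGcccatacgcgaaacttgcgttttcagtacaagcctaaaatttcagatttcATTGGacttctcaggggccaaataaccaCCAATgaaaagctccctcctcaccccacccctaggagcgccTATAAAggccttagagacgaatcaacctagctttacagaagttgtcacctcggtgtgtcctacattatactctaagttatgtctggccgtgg
Hist1h2aa, chr13:23934187-23934486, plus strand: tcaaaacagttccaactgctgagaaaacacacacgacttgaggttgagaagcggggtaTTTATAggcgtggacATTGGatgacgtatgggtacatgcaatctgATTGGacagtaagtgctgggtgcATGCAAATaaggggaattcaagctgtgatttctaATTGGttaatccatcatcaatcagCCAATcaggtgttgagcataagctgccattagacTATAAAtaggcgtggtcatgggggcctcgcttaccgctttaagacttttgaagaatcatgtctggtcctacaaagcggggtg
The window of Hist2h2ac contains the start site of Hist2h2be, at position 96221072. That of Hist1h2aa stops short of the start of Hist1h2ba at 23934156.

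The same motifs and TGACGTCA were counted over 1 window for each gene, on both strands. None of the 4 motifs contains another, and neighbouring genes can share a window. CCAAT was in 50 of 59 replication histones (84.7%) and in 37.9% of all 27025 genes. It was in every one of the 17 H2A, 15 H2B, 10 H3 and 5 H1 windows but in 3 of 12 H4 windows. TATAAA was in 55.9% against 14.2%, TGACGTCA in 6.78% against 1.88% and ATGCAAAT in 18.6% against 1.75%. The octamer was in 6 of 17 H2A and 5 of 15 H2B windows and in 0 of the H1, H3 and H4 windows. Of the 10 germ-line windows 8 held CCAAT and 2 TATAAA. Of the 9 replacement windows 6 held CCAAT and 1 TATAAA.

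The most abundant replication histones were not called. Hist2h2aa1 was at 197, 251 and 175 CPM in the libraries labelled DKO and 266, 243 and 249 in those labelled WT (log2 fold change -0.28, SE 0.114, edgeR adjusted p = 0.113). Its near-identical neighbour Hist2h2aa2 was at 24.0, 24.9 and 31.6 against 25.6, 19.3 and 22.8 CPM (0.26, SE 0.125). Because reads can be shared between these copies, their counts were also summed, which gave -0.23 (SE 0.102, edgeR adjusted p = 0.144). Hist2h2aa1 overlaps Gm20634 on the same strand, and Gm20633 and Gm47313 on the opposite strand. Hist1h2bp was at 33.9, 39.2 and 32.0 against 47.3, 39.4 and 39.8 CPM, without overlap (-0.27, SE 0.0985, edgeR adjusted p = 0.0917). In TPM its groups overlapped, and with the effective-length offset it was at -0.11 (edgeR adjusted p = 0.521).

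Hist1h4a was at 10.4, 12.2 and 11.9 CPM in the libraries labelled DKO and 13.8, 12.2 and 11.5 in those labelled WT (log2 fold change -0.12, SE 0.105), and its sign changed to 0.17 with the effective-length offset. In TPM it held 87.6% ± 2.55 of H4 in the libraries labelled DKO and 82.2% ± 1.06 in those labelled WT. Hist1h3a, Hist3h2a, Hist1h2bc and Hist1h1c had log2 fold changes of -0.20, -0.19, -0.33 and 0.26, none of them called. With the effective-length offset Hist1h3a was at 0.0386 and Hist3h2a at 0.0395. The H3 copies Hist2h3c1 and Hist2h3c2, whose counts were fractional in most libraries, had opposite extremes. Hist2h3c1 was listed at 0 in DKO replicate 1 and at 2.04 CPM in DKO replicate 3, where Hist2h3c2 was at 1.56 and 0.104, and their sum differed by -0.40 (SE 0.218, edgeR adjusted p = 0.229). Over the 10 tested histone genes under 1 CPM on average, standard errors were 0.257 to 0.713 on the log2 scale, against 0.0719 to 0.215 for the 16 at 10 CPM or more.

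Genes that make, carry and remove histones were counted in the same fit. Of 13 genes for histone mRNA synthesis and 3′ processing, 0 were called higher and 1 lower, Lsm10, a subunit of the U7 particle that cuts replication histone mRNA (log2 fold change -0.53, edgeR adjusted p = 0.0398). The median of the 13 was 0.12. Of 29 chaperones and exchange factors, 2 were called higher and 0 lower, with a median of 0.02. These were Atrx, which deposits H3.3 with Daxx (0.46), and Nasp, a chaperone of H3 and H4 that is abundant in testis (0.32, at 1516 ± 149 against 1211 ± 76.2 CPM). Of 14 genes that modify or remove histones in spermatids, 4 were called higher and 0 lower, with a median of 0.02. Cdyl, a chromodomain protein, was at 0.51, Psme4, the activator of the proteasome that degrades acetylated histones, at 0.39, Phf7, an H2A ubiquitin ligase, at 0.32 and Ube2b, a ubiquitin-conjugating enzyme, at 0.30. Of 23 S phase genes, 2 were called higher, Ccne2 and Prim1 (both 0.55), and 0 lower, with a median of -0.04. Each of these counts is to be read against 5.75% higher and 5.1% lower of all tested genes.

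Some lists of cell type markers held called genes too, again to be read against 5.75% higher and 5.1% lower of all tested genes. Of 12 spermatocyte markers 3 were called higher (median log2 fold change 0.32), and their summed level was 978 to 1178 TPM in the libraries labelled DKO and 880 to 939 in those labelled WT. Round spermatid markers, 1 of 10 called higher, summed to 3008 to 3100 against 2897 to 3086 TPM. For elongating spermatid markers, 1 of 10 called higher and 1 lower, the median was -0.07. Sertoli cell markers, 3 of 10 called lower (median -0.17), summed to 1968 to 2373 against 2405 to 2979 TPM. Leydig cell markers, 3 of 8 called lower (median -0.49), summed to 864 to 1521 against 1499 to 3146. Within these sums Defb19 averaged 558 against 877 TPM and Insl3 884 against 1764 TPM. Wt1 (0.08), Ctsl (0.04) and Hsd3b1 (0.21) had positive log2 fold changes, the other markers of both lists negative ones. Of 9 tested spermatogonial markers 0 were called, with a median of 0.02. Of 8 markers of myoid, endothelial and immune cells 0 were called, but their median was -0.30. No marker was at 0 in all libraries. The part of these cell types in the differences of H2afj, H2afv, H2afb3, Hist1h2aa, Hist2h2ac and Hist2h2be was not tested.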

How the data were processed

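RNA from frozen testes was sequenced after standard Illumina preparation, per the labels' protocols; RNA selection and strand handling are not given in the sources used here. The authors deposited RSEM expected counts and TPM per gene for each library. The submitters' processing notes name STAR 2.7.0f, RSEM 1.2.31, DESeq2 1.12.3 and mm10 (GRCm38). Expected counts, 93.2% of them whole within 0.001, were rounded; 45 histone genes had fractional ones.

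All 24411 genes entered edgeR 4.0.16 (R 4.3.3; filterByExpr, TMM, glmQLFit, glmQLFTest, genotype as the only term). CPM were computed from the rounded counts over the library's total of tested genes times its TMM factor. Standard errors are the log2 fold change over the square root of F. Replicate numbers follow accession order. Alternatives used limma 3.58.1, DESeq2 1.42.0, length offsets, filters, thinning and omission of each library. As a check of the code, the fit was also run on simulated counts with seeded changes. These held no difference in fragment length, so they do not bear on that limit.

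Members and lists were chosen with earlier results of these data known. All germ-line and replacement variants, called replication histones and the 10 with the highest mean TPM are named; any other replication histone and Gm14920 were named after their values were seen. Of the members, 84 matched RefSeq by accession and 1 by older symbol. P-values set the difference between groups against the spread between 3 animals per group, which edgeR estimates with information from all tested genes.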

Additional observations from a re-analysis of the deposited data

How the results depend on the processing

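Of the 472 values of the 28 named histone genes under the alternatives, 386 kept their direction and their side of the threshold, 49 lost a call, 12 gained one and 21 changed sign; 4 values of DESeq2 (Hist1h2aa, Hist1h2ba, H2afb3 and H2bfm) kept their direction but had no adjusted p. The 2 called replication histones, Hist2h2be and Hist2h2ac, became 1 with the effective-length offset and after thinning to the smallest total (Hist2h2be), 1 on log2(TPM + 1) and on log2(TPM + 0.1) (Hist2h2ac), 3 with DESeq2 (Hist2h2aa1 added, lower), 2 with the length-trend offset (Hist2h2be and Hist2h2aa2, both higher), 2 others without DKO replicate 2 (Hist1h4h and Hist2h2aa1, both lower), and 0 with fragment length as a covariate, a fit that called 1 gene of all 17110. The 2 called germ-line variants became 1 without the filter and on log2(TPM + 1) (Hist1h2aa). They were replaced by 1 other, H2afb1, higher, with the effective-length offset and by 2 others, H2afb1 and Hils1, both higher, with the length-trend offset; on log2(TPM + 0.1) Hist1h2aa and H2afb1 were called. The count was 0 with a mean count of at least 50 (which removes low genes), with the covariate, after thinning, and with DESeq2, which gave no adjusted p for Hist1h2aa and H2afb3. The 2 called replacement variants became 0 with the covariate and 4 with DESeq2 (H2afz, lower, and H3f3b, higher, added). Over all tested genes 1856 calls became 2943 with DESeq2, 735 on log2(TPM + 1) and 947 on log2(TPM + 0.1). Leaving out 1 library gave 0 to 2 called replication histones, 0 to 2 germ-line variants, 0 to 3 replacement variants and 7 to 3029 genes in all; the total was 11 without DKO replicate 1, 13 without WT replicate 2 and 7 without WT replicate 3. The median of the replication histones was -0.41 without the filter, -0.02 with the effective-length offset, -0.05 with the length-trend offset, -0.41 with the covariate and -0.06 over members with whole counts; that of the germ-line variants was -0.03 with the covariate. With the covariate signs changed for H1fnt (-0.0292), Hist1h2ba (0.039), H2bfm (-0.17), H2afy3 (-0.19), H2afy2 (0.0311), H2afz (0.0740), H3f3a (-0.0612), H3f3b (-0.0641) and Hist1h1c (-0.62). Hist1h4a was at 0.17 with the effective-length offset, 0.10 with the length-trend offset, 0.12 on log2(TPM + 1) and 0.13 on log2(TPM + 0.1), and with the first of these Hist3h2a was at 0.0395 and Hist1h3a at 0.0386. H2afy3 was at -0.0211 on log2(TPM + 1) and -0.0220 on log2(TPM + 0.1), and leaving out 1 library gave -0.0610 to 0.0932 for it and -0.0793 to 0.0139 for H2afy. Summing near-identical copies, an alternative chosen after seeing the data, left the count of called replication histones at 2. Except for the counts removed by a filter, the cause was not tested. No paired analysis was possible because replicate numbers follow accession order and pair no animals.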

Other observations

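Among the untested histone genes, Hist1h4c had most counts (66.2 over the 6 libraries), followed by Hist2h2ab (57.0) and Hist1h2bj (48.5), all replication histones. Hist1h2bq and Hist1h2br were listed with identical expected counts in every library, 42.9 each in total. Gm14920, a gene of the H2A.B family outside the rule, had 29 counts and was not tested.

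Within the H2A type, the gene listed as H2afb1 held 21.1%, 19.995% and 23.3% of TPM in the libraries labelled DKO and 17.7%, 15.8% and 16.8% in those labelled WT, values that did not overlap. Hist2h2be held 7.07% ± 0.422 of H2B TPM against 4.94% ± 0.478 (SD, n = 3 each), also without overlap. In CPM the groups overlapped for H2afb1. The TPM shares were chosen after their values were seen, and no test was run on them.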
